A study of Mus musculus with 4 samples.

Results

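The nuclear-encoded genes of the mitochondrial respiratory chain and ATP synthase were examined in mouse natural killer (NK) cells with and without DKK2. Members were the rows of the deposited expression table whose symbols begin with Nduf, Uqcr, Cox4 to Cox8 or Atp5, together with Sdha, Sdhb, Sdhc and Sdhd. Of 37305 rows, 93 matched. One pseudogene row, Atp5l-ps1, and the lower of 2 rows named Ndufb8 were left out, which gave 91 members. By name these were 38 genes of complex I, 4 of complex II, 8 of complex III, 19 of complex IV, 18 of complex V and 4 assembly factors of complex I (Ndufaf genes).

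The DKK2 group (2 libraries) consisted of primary splenic NK cells given 200 ng/ml DKK2, a secreted protein known as a ligand of the Wnt co-receptors LRP5 and LRP6. The control group (2 libraries) received mock treatment. All cells came from C57BL/6 mice at postnatal day 56, had been cultured for 24 hours in 50 ng/ml recombinant mouse IL-15, and were harvested after a further 24 hours with DKK2 or mock, so the controls are cytokine-stimulated cells. No label says whether the libraries of a group came from separate animals or cultures, so each p-value reflects spread among libraries that may be technical alone.

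The respiratory chain passes electrons from NADH and succinate to oxygen through complexes I to IV and pumps protons across the inner mitochondrial membrane, and complex V uses the proton gradient to make ATP. Most subunits are encoded in the nucleus and imported, while a small set in complexes I, III, IV and V is encoded by mitochondrial DNA. NK cells are known to raise both glycolysis and oxidative phosphorylation when IL-15 activates them for long periods. The promoters of many of these nuclear genes are known to be bound by NRF1, by the ETS-family factor GABP and by YY1.

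The values are FPKM (fragments scaled by transcript length and by the mapped fragments of the library). Levels of different genes are on 1 scale per length, but those of genes with near-identical copies are uncertain. Read totals are not given. From the spacing of low values, the depth relative to control replicate 1 was estimated at 0.399 and 0.401 for DKK2 replicates 1 and 2. For control replicate 2 it was estimated at 0.352. Of the low rows compared, 226 of 2447, 203 of 2341 and 184 of 2342 lay within 0.5% of the ratio used. The estimates assume values scaled by mapped fragments alone. Of 10 defining NK genes, 9 lay above the median of the tested rows in every library, with Ncr1 (an activating receptor) at 389 and 197 FPKM in the DKK2 libraries and 303 and 193 FPKM under mock treatment. The exception, Itga2, had 6.05 and 8.58 FPKM in DKK2 libraries and 9.77 and 8.53 FPKM in controls. Gzmb (granzyme B) was at 6895 and 6115 FPKM in the DKK2 libraries, below the controls at 11543 and 9908 FPKM, with an adjusted p of 1 in limma's fit across all rows. All 33 tested markers of T, B, myeloid, dendritic, erythroid and platelet cells were lowest in control replicate 1. The summed level of the 9 neutrophil markers was 3517 and 124 FPKM in the DKK2 libraries, against 1.03 and 63.6 FPKM under mock treatment. Most of the sum in DKK2 replicate 1 came from S100a8 (1738 FPKM) and S100a9 (1582 FPKM). Of the 7 tested neutrophil markers, 6 were highest in that library and 1 in DKK2 replicate 2. The summed level of the 12 monocyte and macrophage markers was 868 and 657 FPKM against 12.2 and 354 FPKM. Of the 50 markers of all cell types other than NK cells in the table, 2 were listed at 0 in each DKK2 library. In control replicate 1, 17 were listed at 0 (C1qa of macrophages and Retnlg of neutrophils among them), and in control replicate 2, 1 was. The part of other cells in the respiratory chain values was not tested, and in bulk RNA fewer cells of a type and less RNA per cell cannot be told apart.

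The upstream sequences of 3 members are shown because in each of them both DKK2 libraries lay above both controls, and because each holds a match to one of the known regulators. They are RefSeq promoter windows of build GRCm38.p6, written 5′ to 3′ on the gene's strand. Capitals mark matches on either strand to CCGGAAG (ETS family), the NRF1 letters (GCGCA, any base, GCGC) or AAGATGGCG (YY1). The matches in these windows do not overlap. Uqcrh encodes the hinge protein of complex III, and its window is the 250 bases before the gene start at chr4:116075071-116075320, minus strand.
Uqcrh: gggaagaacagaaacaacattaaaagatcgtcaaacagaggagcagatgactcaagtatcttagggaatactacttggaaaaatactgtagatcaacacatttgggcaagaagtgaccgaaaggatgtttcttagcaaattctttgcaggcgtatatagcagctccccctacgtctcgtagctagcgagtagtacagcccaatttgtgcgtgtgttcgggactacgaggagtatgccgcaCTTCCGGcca
Atp5h encodes subunit d of the ATP synthase stalk, and its 250 bases are chr11:115419920-115420169, minus strand, with both an NRF1 and an ETS match.
Atp5h: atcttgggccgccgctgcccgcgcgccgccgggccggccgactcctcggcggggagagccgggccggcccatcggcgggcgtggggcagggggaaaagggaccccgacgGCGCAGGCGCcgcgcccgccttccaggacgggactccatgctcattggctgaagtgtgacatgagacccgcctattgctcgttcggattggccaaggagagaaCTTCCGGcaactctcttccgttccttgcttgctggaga
Ndufs4 encodes a complex I subunit needed for late steps of its assembly, and its YY1 match lies just downstream of the gene start, in the 30 bases at chr13:114388045-114388074, minus strand.
Ndufs4: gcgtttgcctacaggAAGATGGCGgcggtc

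Promoter windows from 250 bases before to 50 bases after the gene start were matched by symbol for 71 of the 91 members. The NRF1 letters were found in 17 of them (23.9%), against 4.78% of the 27025 genes in the RefSeq table. ETS letters were in 16 (22.5%, against 9.12%) and YY1 letters in 6 (8.45%, against 1.49%). At least 1 of the 3 was in 34 windows (47.9%, against 14%). The comparison covers all genes in the RefSeq table, expressed in these cells or not, and no share among the tested rows was taken. These matches are letters in a window and not measured binding. The median log2 fold change (DKK2 minus control) of tested members was -0.04 with an NRF1 match (16 genes), -0.04 with an ETS match (15 genes), -0.05 with a YY1 match (6 genes) and -0.03 with none of them (34 genes), so the medians lay close together.

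Respiratory chain genes were among the more abundant transcripts. Of the 91 members, 81 had a mean of 1 FPKM or more across libraries and were tested. Of these, 72 (88.9%) lay above the median of the 12275 rows tested and 48 (59.3%) in the highest 10%. Together the members made up 1.45% and 1.66% of all FPKM in the DKK2 libraries and 1.72% and 1.33% in the controls. A single microRNA row, mmu-mir-703, took 25.7% and 8.44% of all FPKM in the DKK2 libraries and 11.8% and 17.1% in the controls. Of the FPKM of protein-coding rows alone the members made up 3.37% and 2.87% in the DKK2 libraries and 3.35% and 2.83% in the controls, which reversed the order of the DKK2 libraries. Median levels differed between complexes. Complex V genes had medians of 299.7 and 231 FPKM in the DKK2 libraries and 337 and 230 FPKM under mock treatment, complex IV genes 241 and 222 FPKM against 337 and 205 FPKM, and complex II genes 222 and 208 FPKM against 256 and 204 FPKM. Complex III genes had medians of 120 and 97.4 FPKM in the DKK2 libraries and 157 and 101 FPKM under mock treatment, and complex I genes had 96.6 and 86.7 FPKM against 101 and 70.1 FPKM. The assembly factors were lowest, at 24.9 and 14.3 FPKM against 21.1 and 19.6 FPKM. Within each library the medians fell in the order V, IV, II, III, I and assembly factors. Some gaps were small, as for complexes V and IV in control replicate 1 (337.4 and 336.7 FPKM). Between different libraries the medians of complexes V, IV and II overlapped, as did those of complexes III and I.

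For no respiratory chain gene was a difference between DKK2 and control detected beyond the spread of the replicates. Of the 81 members, 0 passed limma's moderated test at an adjusted p of 0.05 (Benjamini-Hochberg over all 12275 rows, of which 4, or 0.0326%, passed), and 0 had an unadjusted p under 0.05, against 1.84% of all rows. The adjusted p was 1 for each member. The smallest unadjusted p among the members was 0.136 (Uqcrh), from limma across all rows. Fold changes on the log2(FPKM + 1) scale, which understates changes of low genes, were above 0 in 38 members and below 0 in 43. Their median was -0.03, against -0.05 over all rows tested, and they ran between -0.59 (Uqcrq) and 0.70 (Cox7a1). The median standard error (SE) of a member was 0.34, and that of all rows was 0.33.

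In 7 of the 81 members both DKK2 libraries exceeded both controls (8.64%), against 11.8% of all rows tested. In 3 members both lay below (3.70%), against 14.8% of all rows. The sign of the members' median depended on single libraries. It was 0.20 without control replicate 1 (66 members above 0 and 15 below, all rows 0.00) and 0.10 without DKK2 replicate 2, against -0.10 without DKK2 replicate 1 and -0.22 without control replicate 2. With the libraries scaled by median of ratios it was 0.01. In these 5 fits 0 members passed limma. An unadjusted p under 0.05 was found for 7 members (8.64%, all rows 6.97%) without DKK2 replicate 2 and for 1 (1.23%, all rows 1.22%) without control replicate 1. Where a library is left out, the lone library of its group is assumed to vary like the other group.

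**Figure D1:**
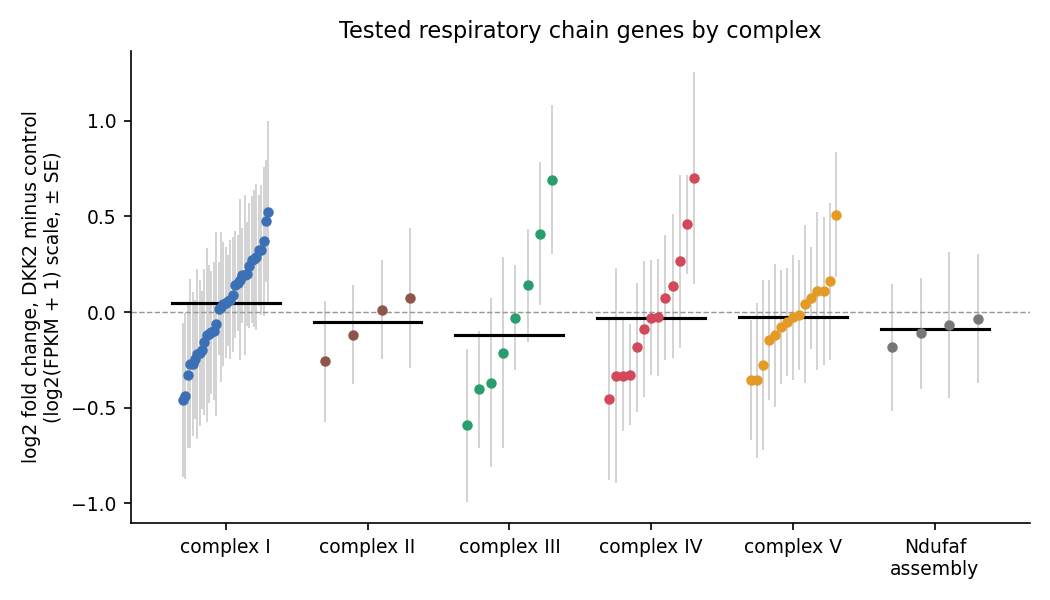
Log2 fold change (DKK2 minus control, log2(FPKM + 1) scale) of each of the 81 tested members, grouped by complex, with the SE from limma as bars (2 libraries a group) and the median of each complex as a black line. The medians lie between -0.12 (complex III) and 0.05 (complex I), and no member passed the test.

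Complex I, the NADH dehydrogenase, is the largest complex and contributed 37 tested genes, of which 22 had a fold change above 0 and 15 below (median 0.05). In 4 of them, with Ndufs4, Ndufb10 and Ndufa10 as examples, both DKK2 libraries were above both controls (10.8%, all rows 11.8%), and in 0 were both below (all rows 14.8%). Ndufs4 was at 94.3 and 58.2 FPKM under DKK2, against 52.6 and 53.3 FPKM under mock treatment (log2 fold change 0.48 ± 0.32 SE, 95% interval -0.35 to 1.30). DKK2 replicate 1 stood well above the other libraries, which lay between 52.6 and 58.2 FPKM. Ndufa10, an accessory subunit, was at 96.6 and 103 FPKM under DKK2, against 95.4 and 96.3 FPKM, a difference of 0.06 ± 0.24 although the groups did not overlap. Ndufb10, an accessory membrane-arm subunit, had 253 and 181 FPKM in DKK2 libraries and 166 and 175 FPKM in controls (0.32 ± 0.29).

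The core subunits of complex I that carry electrons differed in which library was highest. Ndufv2, which holds an iron-sulfur cluster of the NADH-oxidising module, was at 199.96 and 104 FPKM in DKK2-treated cells and 121 and 115 FPKM in control cells. Ndufv1, the flavin-binding subunit of the same module, was at 49.9 and 84.3 FPKM under DKK2, against 100.3 and 66.5 FPKM. Thus DKK2 replicate 1 was the highest library for Ndufv2 and the lowest for Ndufv1. Ndufs1, the large iron-sulfur subunit, resembled Ndufv2, at 72.3 and 44.1 FPKM in DKK2-treated cells against 51.9 and 57.8 FPKM (0.04 ± 0.33). Ndufs7 and Ndufs8, iron-sulfur subunits on the path to ubiquinone, resembled Ndufv1: Ndufs7 was at 20.4 and 37.7 FPKM under DKK2 and 44.98 and 25.2 FPKM under mock treatment (-0.27 ± 0.44). Ndufs8 was at 38.7 and 55.7 FPKM in DKK2-treated cells and 73.9 and 42.7 FPKM in control cells (-0.27 ± 0.38). The core subunit Ndufs3 was at 44.0 and 35.3 FPKM under DKK2 and 34.2 and 36.5 FPKM under mock treatment.

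At the extremes of complex I, the accessory subunit Ndufb4 had the highest fold change, at 42.3 and 17.7 FPKM in DKK2-treated cells and 22.5 and 15.8 FPKM in control cells (0.52 ± 0.48). Ndufc2, also accessory, had the lowest, at 82.9 and 47.3 FPKM under DKK2, against 108 and 69.2 FPKM (-0.46 ± 0.40). In both genes the groups overlapped. Ndufa3, another accessory subunit, was the most abundant complex I gene, at 538 and 596 FPKM in DKK2-treated cells and 639.6 and 459 FPKM in control cells (0.06 ± 0.31). Ndufa4, named as a complex I gene but now known as a complex IV subunit, was at 674 and 337 FPKM under DKK2 and 651 and 382 FPKM under mock treatment, so replicates of 1 group differed more than the groups did.

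Complex II, succinate dehydrogenase, has 4 subunits, all nuclear, and links the tricarboxylic acid cycle to the chain. Sdha, the flavoprotein that oxidises succinate, was the steadiest of these genes, at 355 and 349 FPKM in DKK2-treated cells and 339.7 and 358 FPKM in control cells (0.01 ± 0.26, 95% interval -0.65 to 0.68). Its iron-sulfur partner Sdhb was at 115 and 109.8 FPKM under DKK2, against 136 and 109.8 FPKM (-0.12 ± 0.26). The membrane anchors split as the complex I subunits did. Sdhc was at 216 and 288 FPKM in DKK2-treated cells and 348 and 256 FPKM in control cells (-0.26 ± 0.32), with DKK2 replicate 1 the lowest library. Sdhd was at 228 and 127 FPKM under DKK2 and 172 and 152 FPKM under mock treatment (0.07 ± 0.37), with DKK2 replicate 1 the highest.

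Complex III passes electrons between ubiquinol and cytochrome c, and 3 of its 8 genes had a fold change above 0 and 5 below (median -0.12). Uqcrh was at 1159 and 635 FPKM in DKK2-treated cells, against 536 and 524 FPKM in control cells (0.69 ± 0.39, 95% interval -0.31 to 1.70). Both DKK2 libraries were higher, and DKK2 replicate 1 was 1.82 times as high as the next library. Uqcrq, a small subunit near cytochrome b, was at 85.9 and 104 FPKM under DKK2 and 201 and 102 FPKM under mock treatment (-0.59 ± 0.40, 95% interval -1.63 to 0.44). That gap came from control replicate 1, since the other control lay between the DKK2 libraries. The Rieske iron-sulfur protein Uqcrfs1, the core subunit chosen for this complex, was at 119 and 88.8 FPKM in DKK2-treated cells and at 109.6 and 100.1 FPKM in control cells (-0.03 ± 0.27).

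Complex IV, cytochrome c oxidase, had 13 tested genes, 5 above 0 and 8 below (median -0.03). Cox4i1, the general form of subunit 4 and the most abundant gene of the complex, was at 524 and 607 FPKM under DKK2 and 662 and 499 FPKM under mock treatment (-0.03 ± 0.31). Cox5a was at 547 and 243 FPKM in DKK2-treated cells, against 290 and 318 FPKM (0.27 ± 0.45), and its partner Cox5b had 64.5 and 48.6 FPKM in DKK2 libraries, with 77.5 and 45.9 FPKM in controls (-0.09 ± 0.36). For Cox5a the DKK2 libraries were the highest and the lowest of the 4. Cox8a, the general form of subunit 8, had the lowest fold change of the complex, at 156 and 187 FPKM under DKK2 and 339 and 161 FPKM under mock treatment (-0.45 ± 0.43). As for Uqcrq, control replicate 1 alone stood high.

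In complex IV, both DKK2 libraries were above both controls in 1 of 13 genes (7.69%, all rows 11.8%) and below them in 2 (15.4%, all rows 14.8%). Cox7a2l, which encodes a factor that joins complexes III and IV into supercomplexes and is known to be truncated in C57BL/6 mice, was at 84.9 and 71.7 FPKM in DKK2-treated cells, against 62.0 and 51.5 FPKM in control cells (0.46 ± 0.26, 95% interval -0.21 to 1.13). Each DKK2 library was above each control. Cox7b, a small membrane subunit, had both DKK2 libraries below the controls, with 481 and 397 FPKM against 601 and 505 FPKM (-0.33 ± 0.29). Cox4nb was at 5.72 and 5.57 FPKM under DKK2 and 8.03 and 6.71 FPKM under mock treatment (-0.33 ± 0.26). Its symbol matched the naming pattern, but its product is known as a subunit of the endoplasmic reticulum membrane protein complex and not of complex IV. The counts given for complex IV include Cox4nb, also among the 2 genes with both DKK2 libraries below the controls.

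Complex V, the ATP synthase, had 15 tested genes by symbol, 6 above 0 and 9 below (median -0.03). Atp5sl is counted among them by its symbol alone, and its place in the complex was not checked. The catalytic beta subunit gene Atp5b was the most abundant member of all, at 1338 and 1148 FPKM in DKK2-treated cells and 1499 and 1252 FPKM in control cells (-0.14 ± 0.31). The alpha subunit gene Atp5a1 was at 829.6 and 666 FPKM under DKK2 and 811 and 759.8 FPKM under mock treatment (-0.08 ± 0.30), and the central stalk gene Atp5c1 at 276 and 204 FPKM against 249.7 and 230.4 FPKM (-0.02 ± 0.29). All of these had overlapping groups. Atp5h was at 299.7 and 195 FPKM in DKK2-treated cells, against 188 and 154 FPKM in control cells (0.51 ± 0.33, 95% interval -0.34 to 1.36), the highest fold change of the complex and a gene in which both DKK2 libraries were above both controls. Atp5d, the delta subunit of the central stalk, differed between the DKK2 libraries, at 92.5 and 189 FPKM under DKK2 and 196 and 132 FPKM under mock treatment.

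Subunit c of the ATP synthase ring is made from the genes Atp5g1, Atp5g2 and Atp5g3, which are known to encode the same mature protein. Atp5g3 was at 949 and 483 FPKM in DKK2-treated cells and 658.5 and 656 FPKM in control cells (0.04 ± 0.41). Atp5g1 was at 4.13 and 3.54 FPKM under DKK2, below both controls at 6.26 and 4.27 FPKM (-0.36 ± 0.31), and Atp5g2 was too low to test, at 0.781 and 0.447 FPKM against 0.527 and 0.669 FPKM. Levels near or below those of Atp5g1 were also listed for other subunits of which every assembled complex needs a copy. Atp5l, subunit g, was at 0.464 and 0.301 FPKM in DKK2-treated cells and 0.255 and 0.449 FPKM in control cells, and Cox7c at 2.95 and 1.42 FPKM against 5.11 and 1.49 FPKM. The treatment of fragments matching several near-identical gene copies is not stated in the sources used here, and the levels of Atp5g1, Atp5g2, Atp5l and Cox7c are therefore uncertain.

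The 4 assembly factors Ndufaf1 to Ndufaf4, which help build complex I and are not part of it, all had fold changes below 0, between -0.19 and -0.04. Of the 4, 0 passed limma (all rows 0.0326%). Ndufaf2 was the most abundant, at 34.1 and 25.3 FPKM under DKK2 and 36.3 and 27.9 FPKM under mock treatment (-0.11 ± 0.29). Ndufaf4 was at 19.7 and 11.6 FPKM in DKK2-treated cells and 18.5 and 16.3 FPKM in control cells (-0.19 ± 0.33), and Ndufaf1 at 30.04 and 17.1 FPKM against 23.6 and 23.0 FPKM (-0.04 ± 0.34). In Ndufaf1 and Ndufaf4, DKK2 replicate 1 was the highest library and DKK2 replicate 2 the lowest.

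Several subunits of complex IV have a second gene whose use is known to be restricted to muscle, lung or testis, and these were at or near 0. Cox7b2, Cox8c and Ndufa4l2, a hypoxia-induced relative of Ndufa4, were listed at 0 in all 4 libraries. Cox4i2, the lung form of subunit 4, was at 0.0786 FPKM and listed at 0 with DKK2, against 0.00617 FPKM and listed at 0 in the controls. Cox8b was at 0.0634 and 0.0315 FPKM under DKK2, against 0.0126 FPKM and listed at 0. The muscle form Cox6a2 was at 0.0988 and 0.722 FPKM in DKK2-treated cells and 0.402 and 0.103 FPKM in control cells. Cox6b2, a testis form, lay just under the filter, with 0.950 and 1.43 FPKM in DKK2 libraries and 1.04 and 0.424 FPKM in controls. Only the muscle form Cox7a1 was high enough to test, at 3.89 and 4.10 FPKM under DKK2 and 4.11 and 0.852 FPKM under mock treatment (0.70 ± 0.56), and its fold change, the highest of all members, rested on control replicate 2 alone. The remaining untested member, Atp5l2, was at 0.372 FPKM and listed at 0 with DKK2, against 0.148 FPKM and listed at 0 in the controls. The general forms Cox4i1, Cox7a2 and Cox8a were at 156 FPKM or more in each library.

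**Figure D2:**
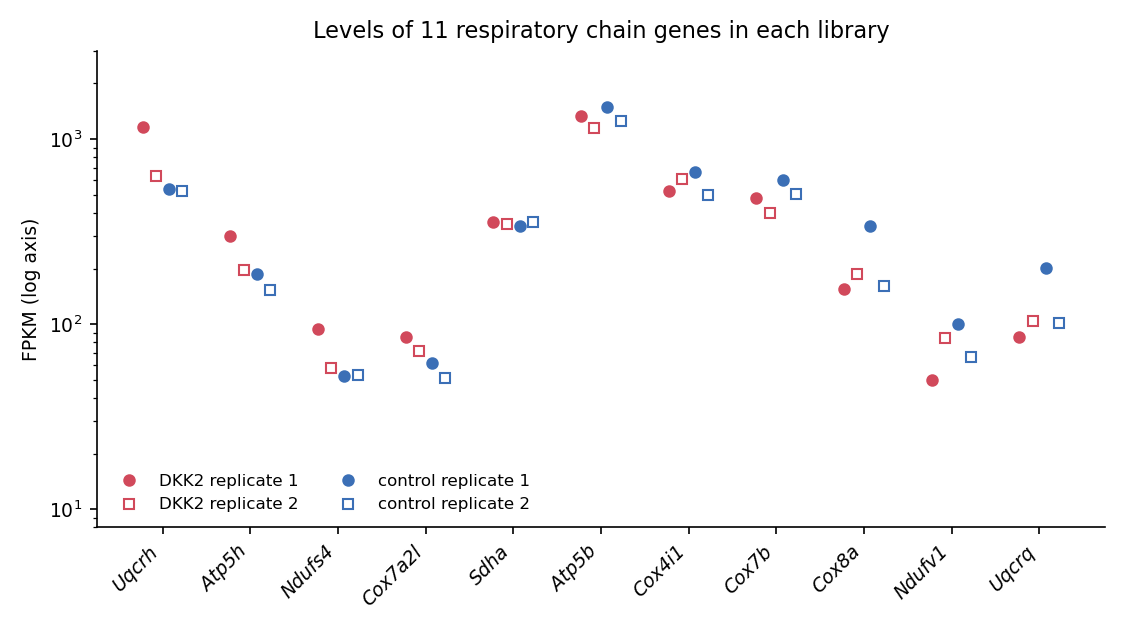
FPKM (log axis) of 11 members in each library, with DKK2 libraries in red, controls in blue, replicate 1 as filled circles and replicate 2 as open squares. Uqcrh, Atp5h, Ndufs4 and Cox7a2l have both DKK2 libraries above both controls, Cox7b has both below, Sdha lies between 339.7 and 358 FPKM throughout, and control replicate 1 stands alone at the top for Cox8a and Uqcrq.

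For most members the highest library was replicate 1 of either group. Spread within groups was not tested against spread between them. DKK2 replicate 1 was the highest library for 35 of the 81 members (43.2%) and control replicate 1 for 43 (53.1%), while DKK2 replicate 2 was highest for 2 and control replicate 2 for 1. Among all rows tested these shares were 27.7% for DKK2 replicate 1, 25.7% for DKK2 replicate 2, 31.6% for control replicate 1 and 14.9% for control replicate 2. On the log2(FPKM + 1) scale the median member was 0.24 higher in DKK2 replicate 1 than in DKK2 replicate 2 (all rows -0.07) and, between the controls, 0.41 higher in replicate 1 than in replicate 2 (all rows 0.08). Set against control replicate 1, the median difference of the members was -0.09 for DKK2 replicate 1 and -0.30 for DKK2 replicate 2. Against control replicate 2 it was 0.26 for DKK2 replicate 1 and 0.08 for DKK2 replicate 2, so the direction depended on which control was used.

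By complex, the sign of DKK2 replicate 1 turned with the control chosen in 4 of 5 complexes and that of DKK2 replicate 2 in 3 of 5. Complex IV gave the widest gap, with median differences of -0.26 (DKK2 replicate 1) and -0.46 (DKK2 replicate 2) from control replicate 1, but of 0.44 and 0.11 from control replicate 2. For complex V the same medians were -0.15 and -0.32, then 0.26 and -0.09. Complex III gave -0.36 and -0.31, then 0.21 and 0.03. In complex I, where DKK2 replicate 1 stood above both controls in the median, they were 0.05 and -0.23, then 0.27 and 0.14. Complex II gave the smallest differences from control replicate 2, with -0.09 and -0.29, then 0.03 and -0.02.

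Which library was highest for a member varied with the base composition of their coding sequences. To show the range of composition, the first 90 coding bases are given for the members (subunits with a mean of at least 20 FPKM, a limit set after their values were seen) with the lowest coding GC content, Uqcrb and Atp5j, and with the highest, Cox6a1 and Cox8a. They are taken from GENCODE M21 transcripts, with G and C in capitals.
Uqcrb: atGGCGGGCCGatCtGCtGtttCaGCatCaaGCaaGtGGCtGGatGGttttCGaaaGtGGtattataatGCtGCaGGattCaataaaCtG
Atp5j: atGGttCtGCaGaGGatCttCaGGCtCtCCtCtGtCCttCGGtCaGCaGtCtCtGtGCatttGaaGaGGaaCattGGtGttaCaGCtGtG
Cox6a1: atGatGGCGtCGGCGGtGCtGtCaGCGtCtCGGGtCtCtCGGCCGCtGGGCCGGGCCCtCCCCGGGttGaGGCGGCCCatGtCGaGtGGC
Cox8a: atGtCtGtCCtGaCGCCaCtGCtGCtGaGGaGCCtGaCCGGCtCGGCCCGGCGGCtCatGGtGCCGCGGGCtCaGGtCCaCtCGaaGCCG
These stretches hold 45.6% G or C in Uqcrb, 50% in Atp5j, 73.3% in Cox6a1 and 70% in Cox8a. Over the whole coding sequence the content was 42.9% in Uqcrb, 43.5% in Atp5j, 64.9% in Cox6a1 and 65.2% in Cox8a. Uqcrb, a small subunit of complex III that binds near the ubiquinone site, was at 160 and 86.1 FPKM in DKK2-treated cells and 83.3 and 93.4 FPKM in control cells, highest in DKK2 replicate 1. Cox6a1, a regulatory subunit of complex IV, was at 241 and 222 FPKM under DKK2 and 337 and 205 FPKM under mock treatment. Cox6a1 was thus highest in control replicate 1, as Cox8a was. Atp5j, coupling factor 6 of the ATP synthase, was highest in control replicate 1 despite its low GC content, at 597 and 783 FPKM in DKK2-treated cells and 1173 and 654 FPKM in control cells. Sdhd, with 57.9% GC, was an exception of the opposite kind, highest in DKK2 replicate 1.

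When the 81 members were ranked by coding GC content and divided into 3 groups of 27, DKK2 replicate 1 was the highest library for 21 genes of the group with the lowest content (42% to 50.8% GC), 10 of the middle group (51.3% to 54.7%) and 4 of the group with the highest (55.1% to 65.2%). Among all tested rows within those GC bounds, DKK2 replicate 1 was highest for 1556 of 3755, 430 of 1964 and 341 of 3327. The median difference of DKK2 replicate 1 minus DKK2 replicate 2 among the members was 0.70, 0.22 and -0.27 in order of increasing content. For control replicate 1 minus control replicate 2 it was 0.14, 0.41 and 0.63. All tested rows within the same GC bounds gave the same order, with medians of 0.19, -0.17 and -0.46 between the DKK2 libraries and -0.07, 0.13 and 0.32 between the controls. The difference between the DKK2 libraries had a Pearson r of -0.59 (Spearman rho -0.62) with coding GC content across the 81 members and of -0.43 (rho -0.49) across 10137 rows with a coding sequence. Genes are not independent replicates, and all points share the same libraries. For the fold change of DKK2 against control, the members' medians were 0.04, -0.03 and -0.16 in the same order, against -0.03, -0.06 and -0.10 over all rows.

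The members had a median coding length of 447 bases, against 1338 over all tested rows that had a coding sequence. Single members ranged from 156 bases (Atp5e) to 2181 bases (Ndufs1). Across the members the difference between the controls had an r of -0.58 with log2 coding length (all rows -0.07), so shorter members stood higher in control replicate 1. Between the DKK2 libraries that r was -0.04 (all rows -0.26). The part of base composition and length in the differences between libraries was not tested.

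**Figure D3:**
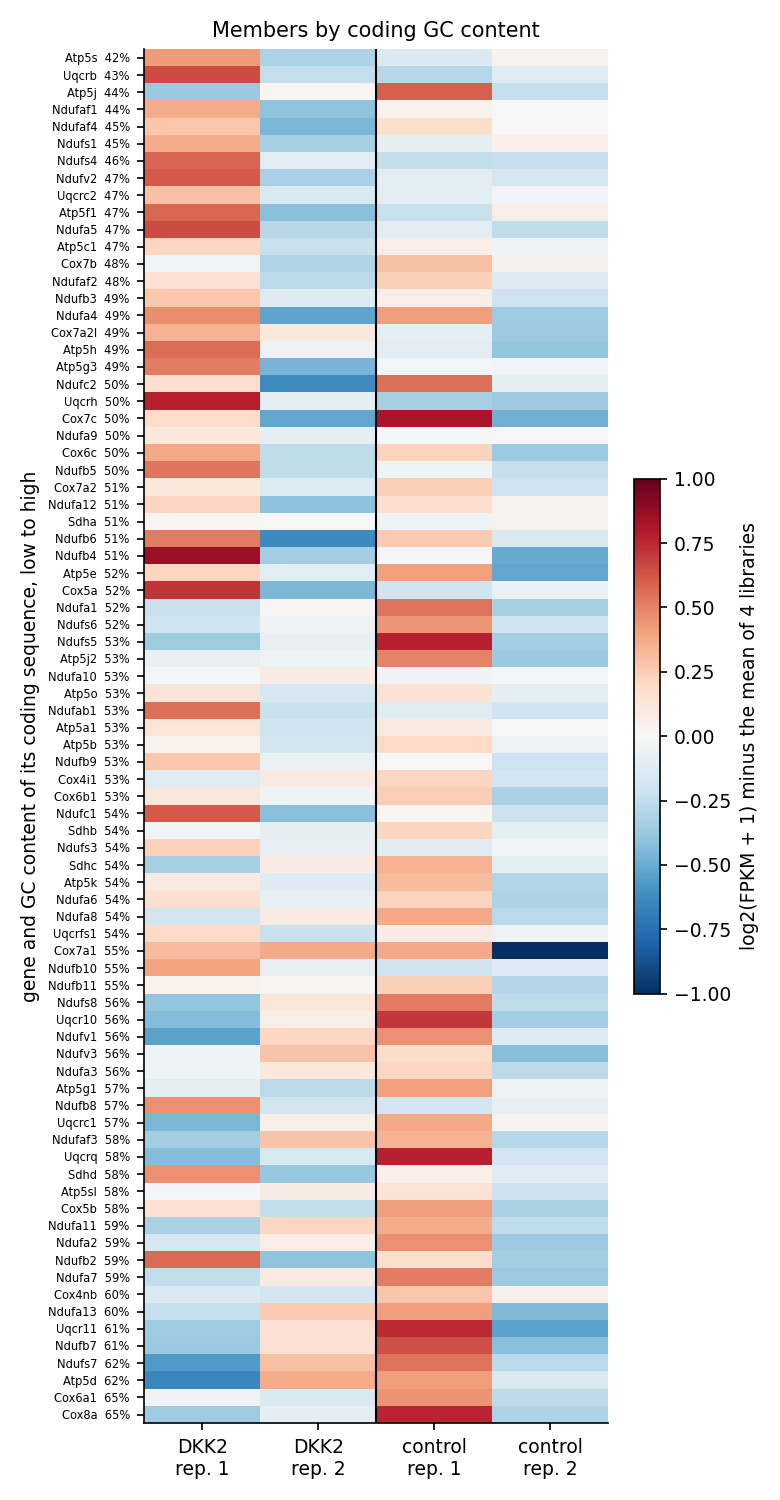
Log2(FPKM + 1) of the tested members minus each gene's mean over the 4 libraries (1 gene of the middle GC group is not drawn), with DKK2 libraries left of the controls and genes ordered by the GC content of their coding sequence (printed beside the symbol), low at the top. DKK2 replicate 1 is highest for 21 of the 27 genes with the lowest GC content and for 4 of the 27 with the highest, where control replicate 1 is highest for 22. Among all tested rows within the same GC bounds, DKK2 replicate 1 was highest for 1556 of 3755 and 341 of 3327. Control replicate 1 was highest for 1509 of those 3327.

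**Figure D4:**
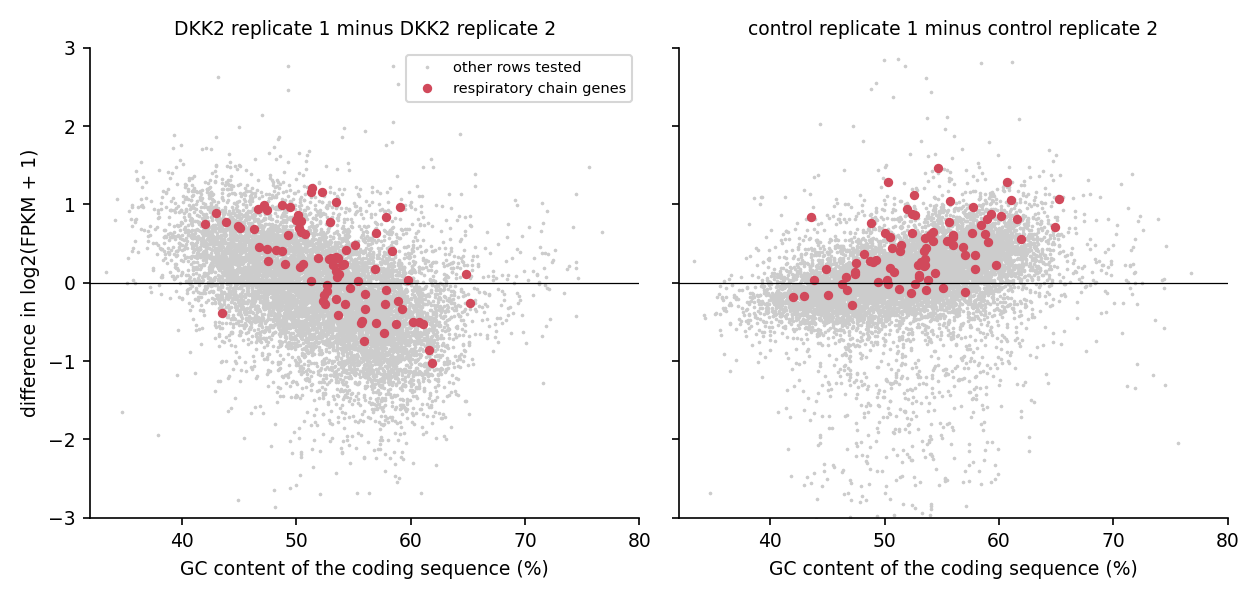
Difference in log2(FPKM + 1) between the replicates of each group against the GC content of the coding sequence, for the 81 members (red) and the other rows tested that had a coding sequence (grey); rows beyond the axis limits are not drawn. Between the DKK2 libraries the members fall with GC content (r = -0.59, all rows with a coding sequence -0.43). Between the controls they rise with it (r = 0.50, all rows 0.26).

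Other genes that serve the chain likewise gave no calls. In the following lists 0 genes passed limma (all rows 0.0326%) and 0 had an unadjusted limma p under 0.05 (all rows 1.84%). Of 17 genes for cytochrome c, cytochrome c1, ubiquinone synthesis, the ATP synthase inhibitor and electron transfer flavoprotein, 6 had a fold change above 0 and 11 below (median -0.16). Cyc1, cytochrome c1 of complex III, was at 78.4 and 81.9 FPKM under DKK2, below both controls at 114 and 90.7 FPKM (-0.34 ± 0.26). Coq4, of ubiquinone synthesis, had the lowest fold change, at 2.34 and 4.27 FPKM in DKK2-treated cells, against 6.14 and 4.74 FPKM (-0.61 ± 0.36). Atpif1, which blocks ATP hydrolysis by complex V, was above both controls, at 197 and 179.7 FPKM under DKK2 and 161 and 142 FPKM under mock treatment (0.32 ± 0.25).

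Of 29 tested assembly factors outside the Ndufaf family, 8 were above 0 and 21 below (median -0.13). The copper chaperone Cox17 was the most abundant, at 262 and 139 FPKM in DKK2-treated cells and 217 and 182 FPKM in control cells (-0.06 ± 0.39). Lyrm7, a chaperone of the Rieske protein, had the highest fold change, at 9.36 and 8.06 FPKM under DKK2 and 3.95 and 8.26 FPKM under mock treatment (0.52 ± 0.39). Ecsit, of complex I assembly, had the lowest, at 9.38 and 15.1 FPKM against 19.0 and 12.8 FPKM (-0.36 ± 0.35). All of these overlapped between the groups.

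The tricarboxylic acid cycle and pyruvate dehydrogenase, which feed the chain, had 3 of 17 genes above 0 and 14 below (median -0.17), and both DKK2 libraries were below both controls in 6 of the 17 (all rows 14.8%). Mdh2, malate dehydrogenase and the most abundant of them, was at 189 and 227 FPKM under DKK2, against 295 and 229 FPKM (-0.32 ± 0.29). Pdhb, a pyruvate dehydrogenase subunit, had the highest fold change, at 58.9 and 26.8 FPKM in DKK2-treated cells and 35.3 and 32.5 FPKM in control cells (0.23 ± 0.42), with overlapping groups.

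Among 17 tested regulators of mitochondrial biogenesis and mitochondrial DNA expression, 7 were above 0 and 10 below (median -0.05). Both DKK2 libraries were above both controls in 2 of the 17 (all rows 11.8%) and below them in 3 (all rows 14.8%). Tfam, which packages and transcribes mitochondrial DNA, was the most abundant, at 135 and 78.1 FPKM under DKK2 and 93.5 and 88.0 FPKM under mock treatment (0.18 ± 0.34). Nrf1, whose binding letters were searched above, had the lowest fold change, at 20.6 and 29.7 FPKM in DKK2-treated cells and 42.3 and 27.9 FPKM in control cells (-0.46 ± 0.34, overlapping groups). Gabpa, the DNA-binding subunit of GABP, had both DKK2 libraries below the controls, with 65.1 and 58.5 FPKM against 81.5 and 85.4 FPKM (-0.43 ± 0.24). Polg2, the accessory subunit of the mitochondrial DNA polymerase, had the highest fold change, at 6.76 and 5.66 FPKM under DKK2, above both controls at 2.58 and 4.15 FPKM (0.74 ± 0.33). Ppargc1a and Ppargc1b, the best known coactivators of these genes, were under the filter, Ppargc1a at 0.639 and 1.28 FPKM in DKK2-treated cells and 1.09 and 0.433 FPKM in control cells. Nrf1, Gabpa and Polg2 were each tested across all rows with limma and had an adjusted p of 1.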

How the data were processed

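Each library is 1 column of a deposited table of FPKM values, which is a unit named per the file headers (the file name says RPKM, and the design written for this work assumed that name). Build mm9, Cuffdiff 2.1.0, TopHat2 2.1.0, CASAVA and edgeR appear in the submitters' processing notes without roles. No source used here states the annotation, the strand setting or the handling of multiply mapped fragments. The table has 4 value columns, with 0 unused.

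Values were taken as log2(FPKM + 1), and rows with a mean of at least 1 FPKM (12275) went into a linear model per row (limma 3.58.1, R 4.3.3; eBayes with a mean trend), tested two-sided with Benjamini-Hochberg adjustment over all of them and a threshold of 0.05. An exact permutation test of 2 libraries against 2 cannot go below p = 0.333. FPKM hold no read counts, so depth was only estimated relatively, from the most frequent ratio of values under 0.3 FPKM. No counting interval can be given. The fit was tested on simulated data whose spread was a fixed value and not that of these libraries. That test therefore does not show what size of change could be detected here.

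Coding sequences were matched by symbol or synonym to GENCODE M21 for 90 of 91 members and 82.6% of tested rows (longest coding part). GENCODE M21 and the RefSeq promoter windows are on GRCm38, not mm9, and served by symbol only. Members and gene lists were chosen with earlier results of these data known. Genes named with values are, in each complex, the most abundant and the highest and lowest fold change, the Sdh genes, a list of core subunits, tissue-restricted isoforms, members listed at 0, and members with groups that did not overlap; Atp5d, Atp5g2, Atp5g3, Atp5l, Atp5j, Cox6a1, Cox7a2, Cox7c, Ndufa4, Uqcrb, Gabpa, Itga2 and Gzmb were added after their values were seen. Some genes that this rule names are not reported here.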

Additional observations from a re-analysis of the deposited data

How the results depend on the processing

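Of the members, 0 passed limma under the main settings and under all 12 alternatives (adjusted p of at least 0.596; 7 members had an unadjusted p under 0.05 without DKK2 replicate 2, 1 without control replicate 1, and 0 in the other fits). A fit without 1 library takes its spread from the other group's pair and assumes that the lone library varies alike. The members' median log2 fold change of -0.03 lay between -0.22 and 0.20 when single libraries were left out; it was 0.20 without control replicate 1, more than the 0.22 SD of the members' median between replicates away from the main value, and between -0.04 and 0.05 under the other alternatives, including subunits only (-0.02) and complex I alone (0.05). Leaving out a library changed the sign of 12 to 34 of the 81 members' fold changes, scaling by median of ratios 6 and quantile normalization 2. Over all rows the count of 4 calls became 0 with no filter on low values (949 at an unadjusted p under 0.05), 0 to 0 in the fits that each lacked a single library (unadjusted p under 0.05 in 150 to 855), and 8 with the replicate number as a block. Nothing in the labels pairs the libraries. Over 12275 rows the replicate differences of the DKK2 and control groups were hardly correlated (r = 0.012). That r is taken about the mean difference, so it cannot show whether a shift is shared by same-numbered libraries. Among the members the median was higher in replicate 1 than in replicate 2 in both groups (by 0.24 for DKK2 and 0.41 for control). Whether same-numbered libraries belong together was not tested, and the blocked fit is given for completeness. The causes were not tested. Estimated depth was lower in 3 of the libraries, and 2 libraries a group limit what could be detected.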

Other observations

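The mitochondrially encoded subunits, which the nuclear genes above join in complexes I, III, IV and V, fell into separate ranges in the deposited table. Of the 13 genes, 7 were high enough to test and 0 of these passed limma (all rows 0.0326%). Of the 7, 3 were above 0 and 4 below (median log2 fold change -0.09). The highest was mt-Cytb, cytochrome b of complex III, at 2971 and 2217 FPKM under DKK2 and 2197 and 2872 FPKM under mock treatment (0.03 ± 0.37 SE). mt-Nd1, of complex I, was at 2322 and 1437 FPKM under DKK2 and 2321 and 3005 FPKM under mock treatment (-0.53 ± 0.40). The catalytic subunit mt-Co1 of complex IV was at 2031 and 1897 FPKM under DKK2 and 1685 and 2581 FPKM under mock treatment (-0.09 ± 0.37). Its partners in the same complex were listed far lower, with mt-Co2 at 0.344 and 0.512 FPKM under DKK2, against 0.548 and 0.390 FPKM, and mt-Co3 at 0.498 and 0.353 FPKM, against 0.227 and 0.323 FPKM. The subunits of complex IV were chosen once their values had been seen, and the reason for their wide spread in the table was not tested.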
